A study of Mus musculus with 20 samples.

Results

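The 8 genes described here encode the corticosteroid receptors and proteins that act with them: Nr3c1 (the glucocorticoid receptor), Nr3c2 (the mineralocorticoid receptor), Hsd11b1, Hsp90aa1, Hsp90ab1, Ptges3, Fkbp4 and Ncoa1. They were chosen by symbol from the 31053 features of the count tables, and all 8 were present. Their transcripts were followed across the cell classes of the basolateral amygdala (BLA) and across the treatments, together with the ratio of Nr3c1 to Nr3c2 in each class. Wild type male C57BL/6 mice, 13 weeks old, drank CORT (corticosterone, 35 µg/ml) or the vehicle BCD (2-hydroxypropyl cyclodextrin) for 6 weeks. They then received ketamine (Ket, 10 mg/kg, i.p.) or saline (Sal), and the tissue was taken 24 h later. Each mouse gave 1 BLA library. Mice 9901 and 9947 had BCD followed by saline (written BCD/Sal), while 9946, 9949 and 9986 had BCD followed by ketamine (BCD/Ket). After CORT, mice 9969 and 9970 were given saline (CORT/Sal), whereas 9967, 9968 and 9971 were given ketamine (CORT/Ket). CORT was itself dissolved in BCD, so by the labels all 4 groups drank the vehicle, although another passage of the study's methods gives the controls plain water.

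Corticosterone acts inside the cell. Its receptors wait in the cytoplasm in a complex with Hsp90, its co-chaperones and immunophilins, which keeps them able to bind the hormone, and after binding they move to the nucleus and recruit coactivators at their target genes. The mineralocorticoid receptor binds corticosterone with high affinity and the glucocorticoid receptor with lower affinity, so the balance of the pair is a common measure of a cell's sensitivity to the hormone, and both are known from the amygdala and the hippocampus. Hsd11b1 regenerates corticosterone from its inactive keto form within cells.

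The 10 libraries held 811628 to 7281768 UMIs (unique molecular identifiers, 1 per captured transcript) in 28722 barcodes. Of these, 8305 barcodes had at least 200 genes and at most 1 in 8 of their UMIs from mitochondrial genes, and they fell into 20 clusters. From marker genes, 15 clusters holding 5763 barcodes were called like 1 of 9 classes: 1017 excitatory and 318 inhibitory neurons, 1368 astrocytes, 377 oligodendrocytes and 409 of their precursor cells, 838 microglia, 71 other immune cells, 1093 endothelial cells and 272 pericytes or mural cells. The class names below stand for these marker-based clusters, and the 8 genes were left out of the clustering. The excitatory class carried Slc17a7 at 1127 and Camk2a at 1065 CPM (UMIs of the gene per 1000000 UMIs of the class), whereas Rspo2, a marker of BLA principal cells, reached 11.03 CPM. The inhibitory class carried Penk, a gene of striatal neurons, at 1077 CPM. The library of mouse 9970 stood apart, with a median mitochondrial share of 3.22% against 33.2% to 57.9% in the other 9, and it made up 99.9% of an unnamed cluster of 2339 barcodes. It therefore entered no comparison between classes, and 21 kept barcode sequences occurred in more than 1 library.

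Promoter sequence was used for 5 of the 8 genes (RefSeq, build GRCm38.p6, the 250 bases before the start of the gene). Nr3c1, Hsp90aa1 and Hsp90ab1 were not searched. Each of the 5 was searched on both strands for the core of the heat shock element (GAANNTTC or TTCNNGAA, which can overlap each other) and of the corticosteroid response element (ACANNNTGT). The 2 promoters that held a match and that of Hsd11b1, the gene with the narrowest class pattern, are shown 5′ to 3′ on the gene's strand, with the match in capitals.
Nr3c2, chr8:76902080-76902329, plus strand: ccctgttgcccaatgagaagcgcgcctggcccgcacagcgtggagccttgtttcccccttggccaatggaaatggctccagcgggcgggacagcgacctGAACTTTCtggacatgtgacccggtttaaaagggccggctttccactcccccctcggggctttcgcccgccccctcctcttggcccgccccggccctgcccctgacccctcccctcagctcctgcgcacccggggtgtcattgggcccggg
Fkbp4, chr6:128438657-128438906, minus strand: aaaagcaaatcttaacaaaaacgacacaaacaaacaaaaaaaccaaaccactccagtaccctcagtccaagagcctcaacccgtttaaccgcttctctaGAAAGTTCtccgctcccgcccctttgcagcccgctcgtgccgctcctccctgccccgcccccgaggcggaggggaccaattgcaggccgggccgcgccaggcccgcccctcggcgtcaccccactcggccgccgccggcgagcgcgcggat
Hsd11b1, chr1:193242361-193242610, minus strand: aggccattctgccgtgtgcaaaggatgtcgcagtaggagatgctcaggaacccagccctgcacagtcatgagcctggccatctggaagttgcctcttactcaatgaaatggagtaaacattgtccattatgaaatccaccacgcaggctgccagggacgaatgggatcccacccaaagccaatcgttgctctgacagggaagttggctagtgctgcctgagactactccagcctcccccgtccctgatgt
In Nr3c2 and Fkbp4 the letters GAANNTTC began 151 bases before the start. Of all 32851 promoters of the same length, 12.84% held either heat shock core and 5.835% held the response element core, so such letters are common. The Hsd11b1, Ptges3 and Ncoa1 windows held none of these letters.

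Nr3c1 lies at chr18:39570199-39650955 on the minus strand (NCBIM37, as are the other gene positions below). It was read in every class, and its level was highest in endothelial cells, where 9 libraries spanned 165 to 375 CPM with a median of 290 and a mean of 282 ± 64.5 (SD, n = 9). Oligodendrocytes (247 ± 56.3, n = 8), pericytes or mural cells (219 ± 65.2, n = 7) and microglia (215 ± 79.1, n = 6) followed, and these 4 classes overlapped widely. Astrocytes reached 149 ± 56.4 CPM (n = 8), oligodendrocyte precursor cells 125 ± 36.7 (n = 6) and excitatory neurons 111 ± 39.6 (n = 9, from 53.3 to 182). The 5 libraries with enough other immune cells gave 184.7, 203.8, 82.8, 51.0 and 176.1 CPM, spread over most of the range of the remaining classes. Inhibitory neurons were lowest, from 0 to 73.4 CPM with a median of 51.9 and a mean of 45.8 ± 22.7 (n = 9), so the endothelial mean was 6.14 times the inhibitory mean. Within each of the 9 libraries excitatory neurons lay above inhibitory neurons (exact paired permutation test, 2-sided p = 0.0039, 0.125 after adjustment over the 64 tests of neighbouring classes for the 8 genes). No other neighbouring pair of classes for Nr3c1 differed at an unadjusted p under 0.05 in these exact tests.

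**Figure D1:**
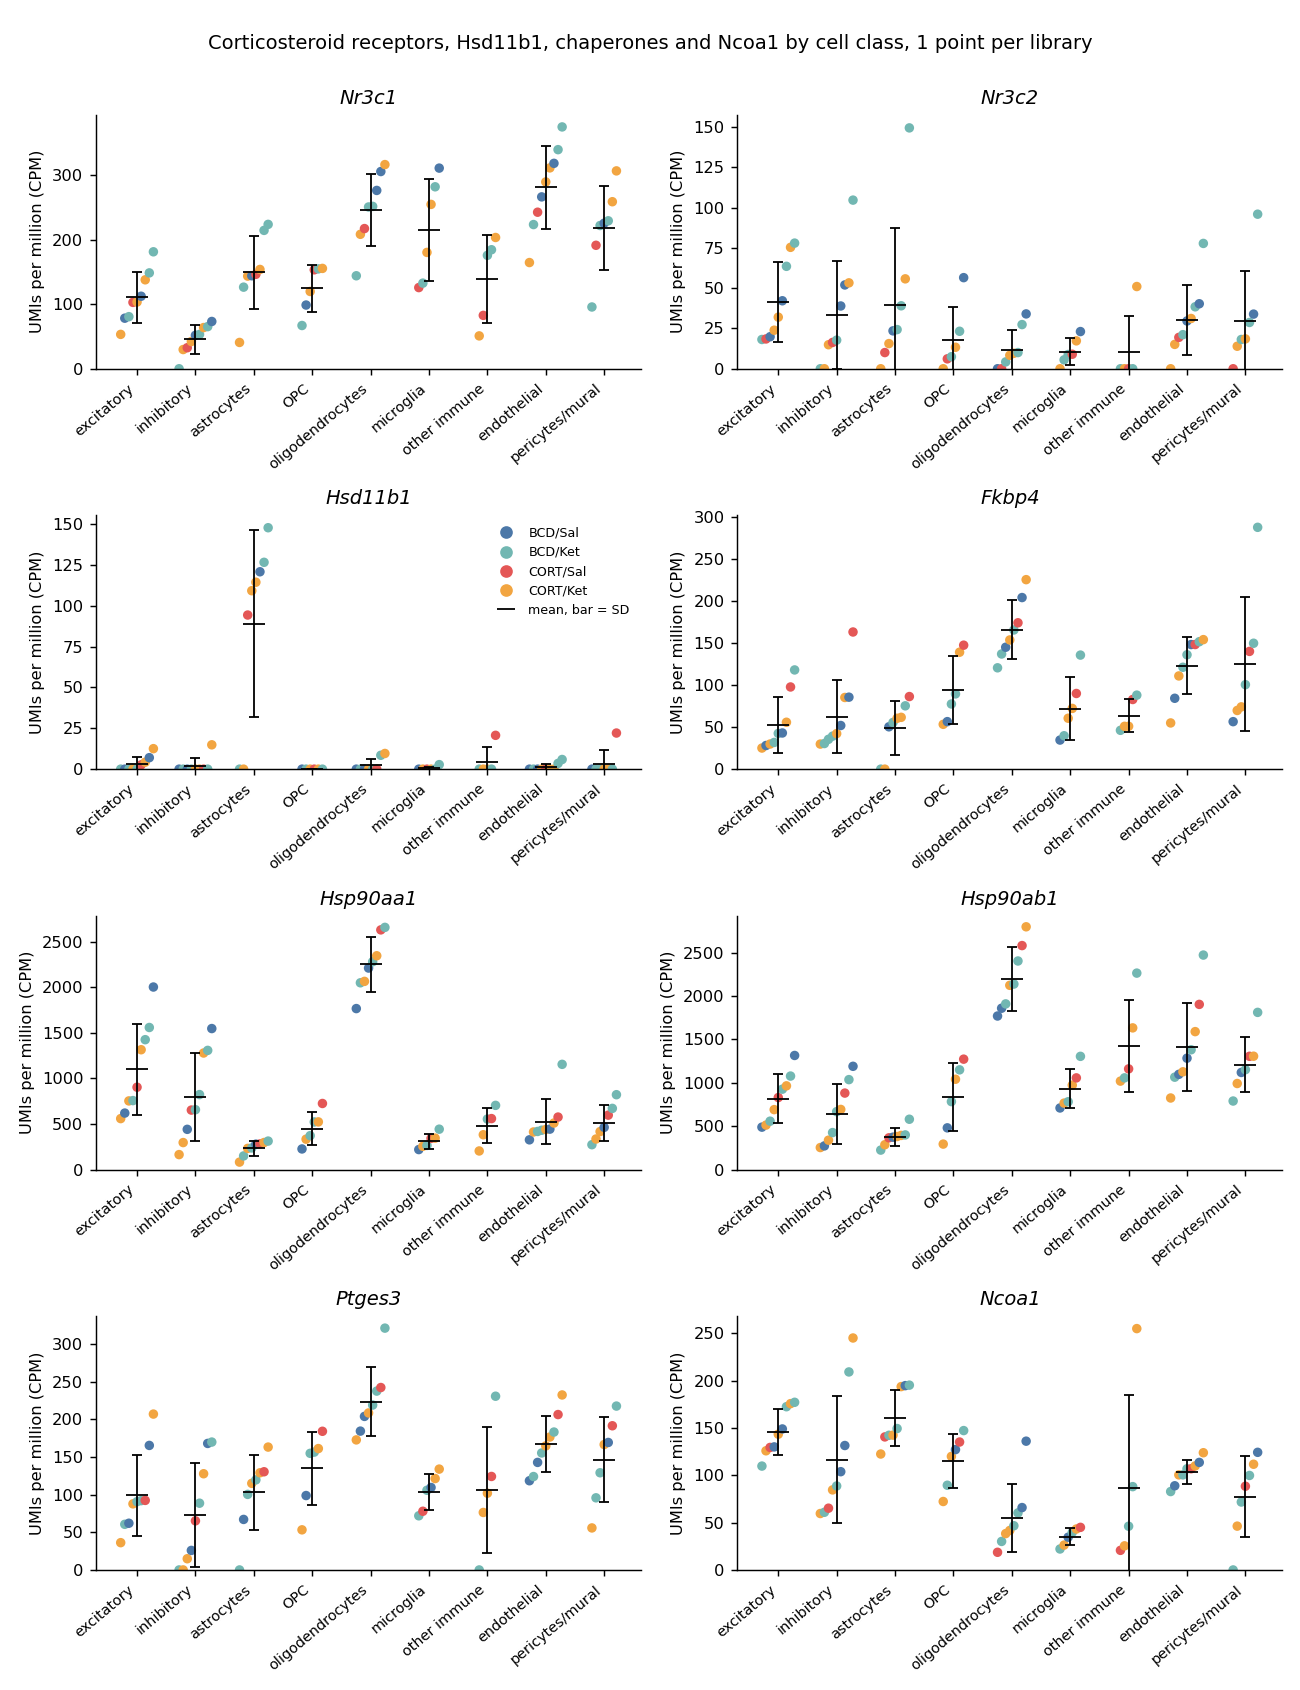
Level of the 8 genes in 9 cell classes, in CPM (vertical axis, linear, its own scale for each gene; OPC, oligodendrocyte precursor cells). Each point is 1 library coloured by treatment group, the bar is the mean and the whisker the SD over libraries, cut off at 0. Hsd11b1 stood above 90 CPM in astrocytes of 6 libraries and at most at 22.1 CPM in any other class, and both Hsp90 genes were highest in oligodendrocytes.

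A model fitted to all 7264 genes with enough counts (edgeR quasi-likelihood test, each class against the mean of the other classes, with the library as a block) tested each class. Nr3c1 was higher in endothelial cells by 1.16 on the log2 scale (SE 0.13, adjusted p = 2.6e-15), oligodendrocytes by 0.82 (SE 0.16), microglia by 0.75 (SE 0.15) and pericytes or mural cells by 0.73 (SE 0.18). It was lower in inhibitory neurons, with a log2 difference of -2.04 (SE 0.24, adjusted p = 1.3e-13), in excitatory neurons, at -0.83 (SE 0.16), and in oligodendrocyte precursor cells, at -0.52 (SE 0.20, adjusted p = 0.026). The call in precursor cells was lost in 14 of 23 alternatives, among them the removal of mouse 9901, 9949, 9967, 9968, 9971 or 9986 (-0.41 to -0.54), so it is a borderline one. The microglial call was lost when library sizes were scaled by another method (relative log expression, RLE: 0.30, adjusted p = 0.076). That scaling also moved the median log2 difference of all genes in microglia from 0.01 to -0.44. In inhibitory neurons it moved from -0.09 to 0.48, so the log2 values of the fit are to be read against the median gene of the class.

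Nr3c2 lies at chr8:79423341-79768911 on the plus strand and was rare, with 436 UMIs in the kept barcodes against 2452 for Nr3c1. Its highest mean was in excitatory neurons, where 9 libraries ran from 18.2 to 77.9 CPM with a median of 32.0 and a mean of 41.3 ± 24.7. Astrocytes (39.7 ± 47.6, n = 8), inhibitory neurons (33.1 ± 33.4, n = 9), endothelial cells (30.3 ± 21.7, n = 9) and pericytes or mural cells (29.9 ± 31.1, n = 7) followed, with SDs of a like size to the means. Without mouse 9946, which had 2 and 1 UMIs in these classes, the mean fell to 24.0 in astrocytes and 18.9 in pericytes or mural cells. Pooled over libraries, inhibitory neurons stood at 44.1 CPM and excitatory neurons at 38.4. The highest inhibitory values were 104.6, 52.0 and 53.3 CPM in mice 9946, 9947 and 9967, against at most 38.9 in the other libraries. Lower means were read in oligodendrocyte precursor cells (17.8 ± 20.5), oligodendrocytes (11.7 ± 12.49), microglia (10.6 ± 8.30) and other immune cells (10.2 ± 22.8, from 1 UMI of mouse 9971), and without mouse 9901 the precursor mean was 10.04. No neighbouring pair of classes differed at an unadjusted p under 0.05 in the exact tests, so the order of neighbours is not settled. In the fit over all genes Nr3c2 was higher in astrocytes (0.93, SE 0.28, adjusted p = 0.0033), endothelial cells (0.85, SE 0.28, adjusted p = 0.0070) and excitatory neurons (0.84, SE 0.26, adjusted p = 0.0033). The endothelial call was lost in 4 of 16 alternatives (0.33 to 0.67), among them RLE scaling (0.44, adjusted p = 0.19). Inhibitory neurons were not called in the main fit (0.71, SE 0.37, adjusted p = 0.094). They were called higher in 9 alternatives (0.77 to 1.43), among them RLE scaling (1.25, adjusted p = 0.0032) and no scaling (1.04, adjusted p = 0.014).

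Among the classes with enough UMIs of the pair, the ratio of Nr3c1 to Nr3c2 UMIs was lowest in neurons and highest in oligodendrocytes and microglia. UMIs of this assay count captured transcript ends and need no division by length. The ratio is one of captured UMIs and not of the molecules in a cell, so it is compared between classes. In inhibitory neurons 3 libraries held at least 10 UMIs of the pair, and their ratios were 0.65 (mouse 9946), 1.4 (9947) and 1.18 (9967), a mean log2 ratio of 0.03 ± 0.59. None of these 3 libraries entered the means of astrocytes, oligodendrocyte precursor cells, pericytes or mural cells, or microglia given below. The inhibitory mean and those means thus share no library, and a difference between libraries cannot be told apart from one between classes. Excitatory neurons of 9 libraries ran from 1.27 to 8.20, with a mean log2 ratio of 1.496 ± 0.96. The mean log2 ratio was 2.60 ± 0.82 in astrocytes (n = 6), 3.09 ± 1.72 in oligodendrocyte precursor cells (n = 6), 3.15 ± 0.62 in endothelial cells (n = 8) and 3.65 ± 1.14 in pericytes or mural cells (n = 6). Oligodendrocytes (4.31 ± 1.14, n = 8) and microglia (4.45 ± 1.23, n = 6) were at the top, corresponding to 19.9 and 21.8 Nr3c1 UMIs for each Nr3c2 UMI.

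Summed over all libraries, the counts behind these ratios were 47 to 36 in inhibitory neurons, 258 to 108 in excitatory neurons, 398 to 69 in astrocytes, 677 to 67 in endothelial cells, 324 to 15 in microglia and 230 to 10 in oligodendrocytes. Nr3c1 thus made up 56.6% of the receptor UMIs in inhibitory neurons (95% Wilson interval 45.9 to 66.8), 70.5% in excitatory neurons (65.6 to 74.9) and 95.6% in microglia (92.8 to 97.3). The intervals here and below cover counting error only. The neuron classes lay below every glial and vascular class in these sums. Other immune cells held 21 Nr3c1 UMIs and 1 Nr3c2 UMI, too few for a ratio in any library.

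**Figure D2:**
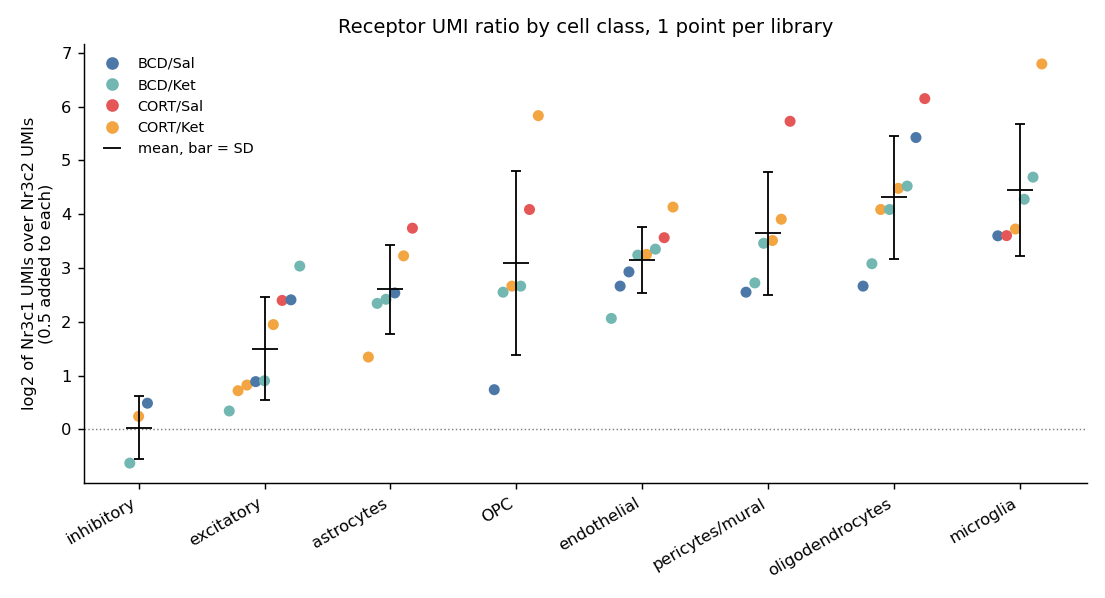
log2 ratio of Nr3c1 to Nr3c2 UMIs, 0.5 added to each count, by cell class (horizontal axis, ordered by mean). Each point is 1 library with at least 10 UMIs of the pair, coloured by group, with mean and SD. The means rise from 0.03 in inhibitory neurons (3 libraries) to 4.45 in microglia (6 libraries), and these 2 classes share no library.

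Classes were compared within libraries by exact paired permutation tests (2-sided), 22 pairs in all. Excitatory neurons had the lower ratio in 8 of 8 libraries against endothelial cells (mean log2 difference 1.71 ± 1.16, p = 0.0078 by the exact test) and against oligodendrocytes (2.87 ± 1.38, p = 0.0078 by the exact test). They were also lower in 6 of 6 libraries against microglia (3.08) and against pericytes or mural cells (2.28), each with an exact p = 0.03125, the smallest that 6 libraries allow. Astrocytes were lower than oligodendrocytes in 6 of 6 libraries by 2.02, with the same exact p. After adjustment over the 22 pairs the lowest p was 0.0859, so 8 pairs had an unadjusted exact p under 0.05 and 0 an adjusted one. Inhibitory neurons were lower than excitatory neurons in 3 of 3 libraries by 1.72 ± 0.20, where the exact test cannot go below p = 0.25. No pair of neighbours in this order differed after adjustment over the 7 neighbouring pairs.

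Hsd11b1, at chr1:195047824-195090248 on the minus strand, was read mainly in astrocytes. Of its 389 UMIs in the kept barcodes, 305 lay there and 58 in the unnamed clusters. The level in astrocytes was 120.9 CPM in mouse 9901, 126.7 in 9949, 109.3 in 9968, 94.4 in 9969, 114.5 in 9971 and 147.8 in 9986, and 0 in 9946 and 9967. The 2 libraries at 0 held only 13386 and 24492 astrocyte UMIs, for which a count of 0 allows up to 276 and 151 CPM (upper bounds of 95% exact intervals), so their levels were not distinguishable from the others at this depth. Every other class had a mean of at most 4.14 CPM, and oligodendrocyte precursor cells held 0 UMIs, which allows up to 4.86 CPM by the same interval. These means rest on so few UMIs that 1 library could set them, as mouse 9969 did with 1 UMI in other immune cells and 3 in pericytes or mural cells, without which both were 0. In the fit over all genes Hsd11b1 was higher in astrocytes by 5.53 on the log2 scale (SE 0.26). No library of another class exceeded 22.1 CPM, so Hsd11b1 passed the filter on low counts only through its astrocyte sums. The difference is therefore a description and not a test.

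The UMIs outside astrocytes were set against those of astrocyte markers in the same classes, and free RNA itself was not measured. Pooled over libraries, Hsd11b1 in the other 8 classes was at 0 to 5.53% of its astrocyte level, where 16 astrocyte markers summed were at 0.576% to 5.99% of theirs. The ends of these ranges did not match by class. Other immune cells had the highest Hsd11b1 share, from 1 UMI, and the lowest marker share. Oligodendrocyte precursor cells had 0 Hsd11b1 UMIs and the highest marker share. No class among these 8 held more than 10 Hsd11b1 UMIs. In the unnamed clusters, mostly mouse 9970, Hsd11b1 was at 13.2% of its astrocyte level and the markers at 12.8%. When cells of at least 1000 UMIs were thinned to that number, which left out 402 shallower astrocytes, 136 microglia and 385 endothelial cells, 10.2% of astrocytes (99 of 966, 95% exact interval 8.41 to 12.3) had at least 1 Hsd11b1 UMI, against 0 of 702 microglia, which allows up to 0.524%, and 0.141% of endothelial cells (1 of 708). Before thinning the shares were 17.2% of astrocytes, 0.119% of microglia and 0.274% of endothelial cells, at median depths of 1540.5, 1604.5 and 1369 UMIs. The share in astrocytes thus lay far above that in classes of like depth.

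Hsp90aa1 (chr12:111928815-111940938, minus strand) and Hsp90ab1 (chr17:45704724-45710220, minus strand) encode the stress-inducible and the constitutive cytosolic Hsp90, the ATP-driven chaperone at the core of the receptor complex. They had the most UMIs of the 8 genes, 14250 and 17592 UMIs. Both have near-identical processed copies in the mouse genome, as does Ptges3, so their exact levels are uncertain. Hsp90aa1 was highest in oligodendrocytes, where 8 libraries ran from 1766 to 2657 CPM with a median of 2246 and a mean of 2251 ± 300. Among the 9 classes, every oligodendrocyte value lay above every value of the other glial, vascular and immune classes. Only mouse 9947, with 2002.8 CPM in excitatory neurons, brought a neuronal value into the oligodendrocyte range. The few ependymal cells, outside the 9 classes, stood higher, at 6091 CPM pooled. Excitatory neurons (1099 ± 497, n = 9) and inhibitory neurons (796 ± 484, n = 9) had the next means, and astrocytes were lowest (234 ± 79.8, n = 8), the oligodendrocyte mean being 9.63 times theirs. In inhibitory neurons mice 9946, 9947 and 9967 stood at 1308, 1547 and 1279 CPM, and the other libraries at most at 823. The cause of this split was not tested. Mice 9946, 9947 and 9967 had too few microglia and oligodendrocyte precursor cells to enter the means of those classes. Inhibitory neurons exceeded endothelial cells in only 5 of 9 libraries (exact p = 0.34, adjusted 0.756). Oligodendrocytes exceeded excitatory neurons in 8 of 8 libraries (exact p = 0.0078, adjusted 0.167) and excitatory exceeded inhibitory neurons in 9 of 9 (exact p = 0.0039, adjusted 0.125).

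In the fit over all genes Hsp90aa1 was higher in oligodendrocytes by 2.32 (SE 0.15, adjusted p = 8.2e-25) and in excitatory neurons by 0.69 (SE 0.16). It was lower in astrocytes at -1.03 (SE 0.20), microglia at -0.65 (SE 0.21) and oligodendrocyte precursor cells at -0.58 (SE 0.22). The last call was lost in 10 of 23 alternatives, among them the removal of mouse 9901, 9949, 9968, 9971 or 9986 (-0.50 to -0.57). The call in inhibitory neurons depended on the scaling: Hsp90aa1 was not called there with the main scaling, and was called higher with RLE scaling (0.55) and with none (0.36).

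Hsp90ab1 was spread more evenly. Oligodendrocytes were again highest (2197 ± 366, n = 8, from 1769 to 2797 with a median of 2130), followed by other immune cells (1426 ± 528, n = 5), endothelial cells (1415 ± 507, n = 9) and pericytes or mural cells (1210 ± 320, n = 7). Microglia (931 ± 226), oligodendrocyte precursor cells (836 ± 388), excitatory neurons (818 ± 281) and inhibitory neurons (640 ± 343) had lower means, and astrocytes were lowest (375 ± 103, from 224 to 580). Endothelial cells exceeded pericytes or mural cells in 7 of 7 libraries (exact p = 0.0156, adjusted 0.2), whereas both neuron classes, next to oligodendrocytes for Hsp90aa1, had lower means than the vascular classes and microglia for Hsp90ab1. Hsp90ab1 was higher in oligodendrocytes by 1.51 (SE 0.14), endothelial cells by 0.77 (SE 0.14) and pericytes or mural cells by 0.39 (SE 0.16, adjusted p = 0.048). The call in mural cells was lost in 16 of 22 alternatives (0.05 to 0.44), among them the removal of any of the mice 9901, 9949, 9967, 9968, 9969, 9971 and 9986 (0.26 to 0.44). It was lower in astrocytes at -1.19, inhibitory neurons at -1.10, oligodendrocyte precursor cells at -0.48 and excitatory neurons at -0.44. The call in precursor cells was lost in 11 of 23 alternatives, among them the removal of mouse 9901, 9949, 9968 or 9971 (-0.27 to -0.48). That in excitatory neurons was lost in 9 of 23, without mouse 9968 (-0.22) or 9971 (-0.24) among others. It reversed to 0.42 when barcodes with up to 25% mitochondrial UMIs were kept, to 0.37 with coarser clusters and to 0.15 with the 8 genes kept in the clustering. In each of those settings the larger cluster of excitatory neurons no longer had enough markers to be named.

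**Figure D3:**
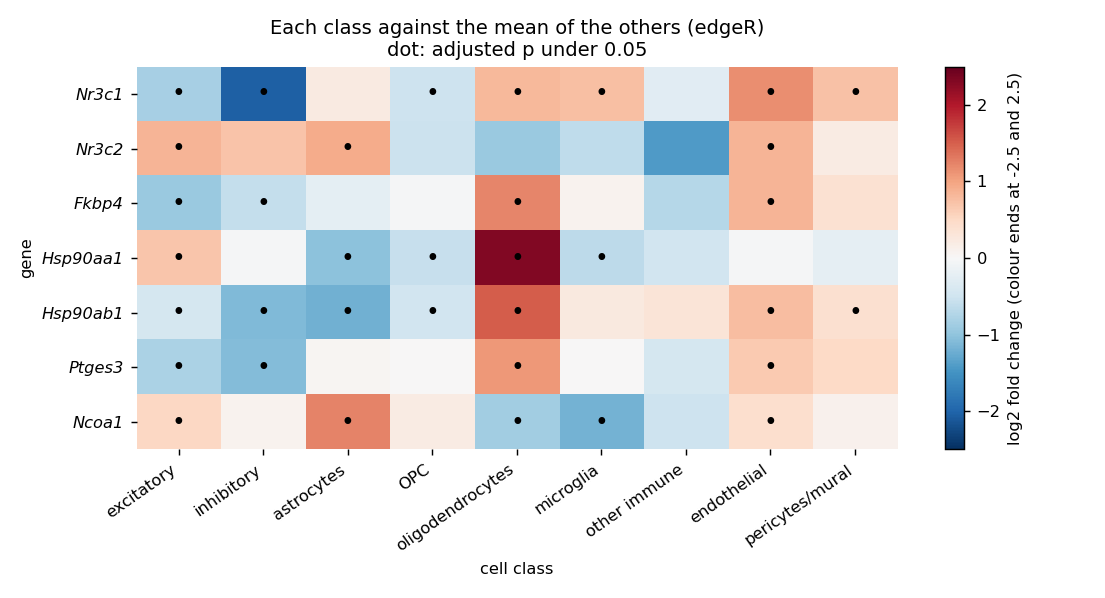
log2 difference of each class from the mean of the other classes (colour) for 7 genes, from the edgeR fit over 7264 genes; a dot marks an adjusted p under 0.05. Hsd11b1 is left out since it was near 0 outside astrocytes. All 4 chaperone genes carry a dot in oligodendrocytes, where each was higher.

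Ptges3 (chr10:127496010-127514328, plus strand) encodes the co-chaperone p23, which binds the closed form of Hsp90, and Fkbp4 (chr6:128379753-128388695, minus strand) the immunophilin FKBP52, which joins the receptor complex and links it to transport into the nucleus. Both were highest in oligodendrocytes. Fkbp4 ran from 121 to 225 CPM there with a median of 160 and a mean of 166 ± 34.9 (n = 8), against 125 ± 79.8 in pericytes or mural cells, 123 ± 34.5 in endothelial cells, 52.4 ± 33.2 in excitatory neurons and 48.7 ± 32.1 in astrocytes. The astrocyte mean held a 0 in each of the shallow libraries of mice 9946 and 9967, and pooled over libraries Fkbp4 was at 64.2 CPM in astrocytes and 45.2 in excitatory neurons. Ptges3 ran from 173 to 321 CPM in oligodendrocytes with a median of 214 and a mean of 224 ± 46.1 (n = 8), against 167 ± 37.3 in endothelial cells, 99.4 ± 53.8 in excitatory neurons and 73.4 ± 68.9 in inhibitory neurons. Pooled over libraries, the neuron classes stood in the opposite order, at 82.5 CPM in excitatory and 112.8 in inhibitory neurons. Ptges3 in inhibitory neurons was at 170.0, 168.2 and 127.9 CPM in mice 9946, 9947 and 9967, and at most at 88.7 in the other libraries. Oligodendrocytes exceeded endothelial cells in 7 of 8 libraries for Fkbp4 (exact p = 0.0234) and in 6 of 8 for Ptges3 (exact p = 0.03125), neither of which held after adjustment. In the fit over all genes Fkbp4 was higher in oligodendrocytes by 1.22 (SE 0.17) and endothelial cells by 0.85 (SE 0.15), and lower in excitatory neurons at -0.93 (SE 0.18) and inhibitory neurons at -0.60 (SE 0.24, adjusted p = 0.029). The inhibitory call was lost in 16 of 23 alternatives (-0.66 to 0.14), among them both other scalings and the removal of mouse 9946, 9949, 9968, 9971 or 9986 (-0.37 to -0.53). Ptges3 was higher in oligodendrocytes by 1.09 (SE 0.18) and endothelial cells by 0.66 (SE 0.15), and lower in inhibitory neurons at -1.08 (SE 0.24) and excitatory neurons at -0.80 (SE 0.18). The endothelial call of Ptges3 was lost with RLE scaling (0.27, adjusted p = 0.082), the inhibitory one with coarser clusters (-0.38) and the excitatory one in 3 of 23 alternatives (-0.40 to 0.049).

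Ncoa1 (chr12:4247363-4484060, minus strand) encodes the steroid receptor coactivator SRC-1, which bridges bound receptors to the transcription machinery. Its order was unlike that of the chaperones. It was highest in astrocytes, from 122 to 195 CPM with a median of 146 and a mean of 160 ± 29.5 (n = 8), and in excitatory neurons (146 ± 24.5, n = 9). Oligodendrocytes (54.7 ± 36.2, n = 8) and microglia (35.2 ± 9.29, n = 6, from 22.1 to 45.0) were lowest, and no microglial value reached the lowest astrocyte value. In the fit over all genes Ncoa1 was higher in astrocytes by 1.24 (SE 0.14), excitatory neurons by 0.52 (SE 0.15) and endothelial cells by 0.41 (SE 0.15, adjusted p = 0.016), and lower in microglia at -1.17 (SE 0.22) and oligodendrocytes at -0.87 (SE 0.24). The endothelial call was lost in 13 of 23 alternatives (0.01 with RLE scaling to 0.37), among them the removal of mouse 9967, 9968, 9969 or 9971 (0.13 to 0.37).

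All 8 genes passed the filter on low counts in this fit, which gave 72 tests. Of these 37 had an adjusted p under 0.05, 20 higher and 17 lower, and DESeq2 called 33. Hsd11b1 passed that filter only through its astrocyte sums. Its calls in astrocytes and in oligodendrocyte precursor cells, included in these counts, are therefore descriptions. The counts of calls have to be read against the share of all genes called, which was large in every class. In excitatory neurons 7 of 8 genes were called where 63.7% of all genes were, in endothelial cells 6 where 52.3% were, in oligodendrocytes 6 where 46.9% were and in astrocytes 5 where 50.1% were. In inhibitory neurons 4 were called where 56.0% of all genes were, in oligodendrocyte precursor cells 4 where 40.4% were, in microglia 3 where 45.1% were, in pericytes or mural cells 2 where 39.5% were and in other immune cells 0 where 29.4% were. The shares of the 8 genes called therefore ran on either side of the background. In endothelial cells all 6 calls were upward, as were 69.6% of those of all genes, and with RLE scaling 3 were upward and 1 downward, against 46.2% upward for all genes. In oligodendrocytes 5 of 6 were upward, where 55.7% of all calls were, and again 5 of 6 with RLE scaling, where 50.5% were. In inhibitory neurons all 4 were downward, where 44.4% of all calls were, but RLE scaling gave 3 upward and 3 downward. In oligodendrocyte precursor cells all 4 were downward, where 30.8% of all calls were, and RLE scaling left 1, that of Hsd11b1. The Hsd11b1 call there rested on 0 UMIs and was lost in 7 of 22 alternatives, among them the removal of mouse 9949, 9968, 9969 or 9971 (-2.42 to -3.25). With at most 5% mitochondrial UMIs, which left 36 tests, the excitatory calls of Nr3c1 (-0.66), Fkbp4 (-0.55) and Ncoa1 (0.45) and the microglial call of Hsp90aa1 (-0.33) were lost. With up to 25% the inhibitory call of Hsp90ab1 was lost (-0.32). The class with the highest mean of each gene was the same in 13 of 13 alternatives, which changed the pseudocount, the smallest sum kept or left out a library.

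Endothelial cells and mural cells also carried high levels of genes that rise when tissue is dissociated. The sum of 16 such immediate early and heat shock genes was 10332 CPM in endothelial cells and 4860 CPM in pericytes or mural cells, against 637 to 2457 CPM in the other 7 classes. In the fit 14 of the 15 tested rose in endothelial cells and 14 in mural cells. Of all genes 52.3% were called in endothelial cells, 69.6% of these upward, and 39.5% in mural cells, 76.1% of these upward. The endothelial class consisted of a cluster of 265 cells led by Fosb, Atf3, Fos and Hspa1a and a larger cluster of 828 cells, and 6 libraries held enough of each for a paired comparison, chosen after the clusters were seen. The 16 genes summed to 18615 CPM in the former and 4388 CPM in the latter.

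Hsp90aa1 in the cluster led by stress genes was 753.4, 1419.0, 685.1, 651.5, 575.2 and 859.3 CPM in mice 9901, 9949, 9968, 9969, 9971 and 9986, against 309.6, 697.2, 407.8, 534.4, 327.1 and 277.4 CPM in the other cluster of the same mice. It was higher in 6 of 6 libraries (824 ± 307 against 426 ± 162), and so was Hsp90ab1 (1854 ± 508 against 1394 ± 457). Ptges3 was lower in 6 of 6 (133 ± 44.5 against 201 ± 48.6). Each had an exact paired p = 0.03125, the smallest that 6 libraries allow, and 0.141 after adjustment over the tests between clusters. Nr3c1 was higher in 3 of 6 libraries (318 ± 94.0 against 283 ± 49.2), and Fkbp4 in 5 of 6. Both Hsp90 genes were thus higher, in every library compared, in the cluster that carried more of the stress genes. The part of dissociation in the differences between classes was not tested.

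**Figure D4:**
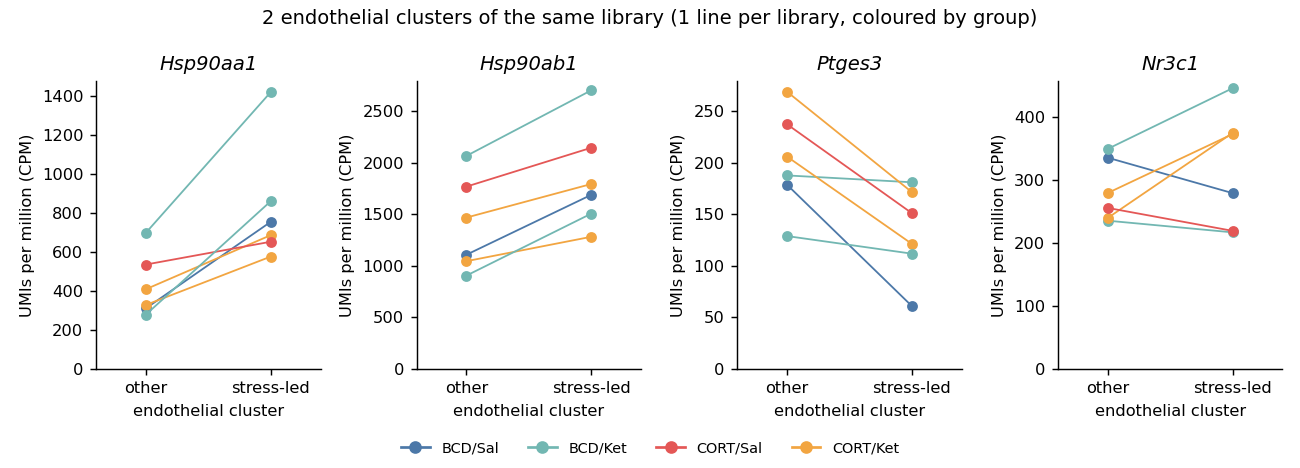
Level in CPM (vertical axis) of 4 genes in the larger endothelial cluster and in the endothelial cluster led by stress genes. Each line joins the values of 1 library, coloured by group. Hsp90aa1 and Hsp90ab1 rise in all 6 libraries and Ptges3 falls in all 6.

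Clusters within the other classes were compared in the same way. Of the inhibitory clusters, 162 cells were led by Penk and Drd1 and 156 by Sst, Npy and Vip. In 5 libraries Fkbp4 was lower in the former in every case (25.5 ± 15.9 against 73.1 ± 40.7 CPM, exact p = 0.0625, the smallest possible), and Nr3c1 was higher in 4 of 5 (71.9 ± 26.5 against 36.7 ± 11.6). For Nr3c1 both clusters lay below the deeper excitatory cluster: Nr3c1 there was higher in 6 of 6 libraries than in the Penk cluster (104 ± 17.4 against 64.7 ± 29.6) and than in the Sst cluster (103 against 45.2 ± 23.3). Each of these comparisons had an exact paired p = 0.03125, adjusted 0.141. Nr3c1 was thus lower in both kinds of inhibitory cell than in the deeper excitatory cluster. The other excitatory cluster, at 94.5 ± 65.1 CPM in 5 libraries, was not compared with them. Among astrocytes, the cluster with 1009 cells had more Fkbp4 than that with 359 cells in 6 of 6 libraries (71.6 ± 11.9 against 31.8 ± 25.5 CPM, exact p = 0.03125, adjusted 0.141), and more Hsd11b1 in 5 of 6 (120 ± 17.5 against 85.4 ± 53.6).

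Shares of cells with a UMI, after the same thinning, gave the pattern at the level of cells, with 323 shallower excitatory neurons, 81 inhibitory neurons and 86 oligodendrocytes left out. Nr3c1 was read in 22.3% of endothelial cells (95% exact interval 19.3 to 25.6) and 21.0% of oligodendrocytes, against 6.34% of excitatory and 5.91% of inhibitory neurons (3.27 to 9.71). Nr3c2 was read in 3.38% of inhibitory and 3.03% of excitatory neurons, 2.68% of endothelial cells, 0.997% of microglia and 0.687% of oligodendrocytes. Hsp90aa1 was read in 83.8% of oligodendrocytes (79.1 to 87.9) and 22.9% of astrocytes. Before thinning these shares were 35.9%, 39.8%, 15.9% and 12.9% for Nr3c1, 9.75%, 7.57%, 5.86%, 1.55% and 2.65% for Nr3c2, and 88.9% and 33.6% for Hsp90aa1.

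Clusters too small for a comparison gave pooled values. The 28 ependymal cells held Hsp90aa1 at 6091 CPM (95% exact interval 5725 to 6475), Hsp90ab1 at 2397 and Ptges3 at 403, the highest of any cluster group. The 26 fibroblasts held 13 Nr3c1 UMIs (225 CPM) and 6 Nr3c2 UMIs (104 CPM), and the 29 choroid plexus cells 4 Nr3c1 UMIs and 0 of Nr3c2. The 20417 barcodes removed by the filters held 1467 Nr3c1 and 519 Nr3c2 UMIs, a ratio of 2.83, which lay between those of excitatory neurons and astrocytes.

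Other genes of the same pathway were described from lists. Of 21 other chaperones and co-chaperones 20 were tested, and 8 rose and 1 fell in oligodendrocytes (9 of 20, where 46.9% of all genes were called), 8 and 2 in endothelial cells (10 of 20, where 52.3% were) and 10 and 1 in microglia (11 of 20, where 45.1% were). In pericytes or mural cells 6 rose and 1 fell (39.5% of all genes), in excitatory neurons 4 and 4 (63.7%) and in other immune cells 2 and 1 (29.4%). In astrocytes 2 rose and 8 fell (50.1%), in inhibitory neurons 1 and 8 (56.0%), and in oligodendrocyte precursor cells 1 and 7 (40.4%). The share of the list called was thus near that of all genes in most classes. Without scaling factors the counts became 6 and 4 in microglia, 6 and 5 in endothelial cells, 8 and 3 in excitatory neurons, 1 and 10 in astrocytes, 3 and 5 in inhibitory neurons and 3 and 4 in oligodendrocyte precursor cells. The median log2 difference of the list was 0.50 in microglia and 0.17 in oligodendrocytes, where that of all genes tested was 0.01 and -0.19. Fkbp5, the immunophilin that competes with Fkbp4 and is itself a target of the receptor, was higher in microglia by 2.77 (SE 0.24) and lower in pericytes or mural cells at -2.19 and endothelial cells at -0.87. The co-chaperones St13 and Ahsa1 rose in oligodendrocytes by 0.90 and 0.99, as Hsp90 itself did. Dnajb1, a heat shock protein that is induced by stress, rose in endothelial cells by 1.77 and fell in astrocytes, at -1.81.

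Of 14 other coactivators 11 were tested, and 7 rose and 1 fell in microglia (Ncoa3 by 1.38 and Pnrc1 by 1.26), where Ncoa1 fell and 45.1% of all genes were called, and 5 rose and 1 fell in endothelial cells, where 52.3% were. In astrocytes, where Ncoa1 was highest, 0 rose and 4 fell, and 50.1% of all genes were called. In microglia and astrocytes Ncoa1 thus differed in direction from most other coactivators called, also without scaling factors (5 rose and 1 fell in microglia, 0 rose and 5 fell in astrocytes). Of 7 corepressors 6 were tested, among which Nrip1 rose in microglia by 2.90 and Hexim1 in endothelial cells by 1.79. Of 8 genes for nuclear import 7 were tested, with Kpna1 higher in excitatory neurons by 1.18 and Ipo13 in oligodendrocytes by 2.26. Of 8 genes for supply and efflux of corticosteroids only Abcb1a, a pump of the blood-brain barrier, was tested. It was among the markers that named the endothelial class, so its log2 difference of 8.42 there is a description, and it was 6.53 in pericytes or mural cells.

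The genes most like each of the 8 were sought by Pearson's r of log2(CPM + 10) over 54 class-by-library sums of at least 50000 UMIs, among 8798 genes. The sums share libraries and depth, so r is a description. Hsd11b1 went most with the astrocyte genes Aldh1l1 (0.94), Cyp4f15 (0.93) and Grin2c (0.93). Hsp90aa1 went with Stmn1 (0.89), Fkbp1a (0.85) and Gnai1 (0.82), and Hsp90ab1 with Bnip3l (0.87), Ywhaq (0.84) and Rpsa (0.84). Nr3c1 went with Rhoa (0.83), Hmgb1 (0.82) and Serf2 (0.81), whereas Nr3c2 reached only 0.71 with Usp46, 0.70 with Ildr2 and 0.69 with Magi3. Fkbp4 went with U2af1 (0.79), 1810037I17Rik (0.78) and Btf3 (0.75), Ptges3 with Nsmce4a (0.78), Chchd2 (0.77) and Hspa8 (0.77), and Ncoa1 with Itsn1 (0.80), Syne1 (0.79) and Cpe (0.78). Among the 8 genes themselves, Hsp90ab1 went with Ptges3 (0.75), Fkbp4 (0.73) and Hsp90aa1 (0.66), and Nr3c2 with Ncoa1 (0.63). The receptors did not go together, with r = -0.19 between Nr3c1 and Nr3c2 and 0.57 between Nr3c1 and Ptges3.

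The treatments were compared within each class, for contrasts with at least 2 libraries of at least 10 cells in each group, by the edgeR quasi-likelihood test over all genes. No change of any of the 8 genes was detected. Of 142 tests in 22 combinations of class and contrast, 0 had an adjusted p under 0.05 and 1 an unadjusted p under 0.05, and DESeq2 gave 0 and 0. The lowest adjusted p was 0.894, for Nr3c2 in endothelial cells. Few genes of any kind were called: 0.0719% of all tests for CORT/Ket against BCD/Ket, 0.0141% for BCD/Ket against BCD/Sal, 0.0467% for CORT/Sal against BCD/Sal, 0.0778% for CORT against BCD averaged over both injections, 0.0 for CORT/Ket against CORT/Sal and 0.0 for the interaction of CORT and Ket. Contrasts with the CORT/Sal group could be fitted only in excitatory neurons and endothelial cells and rested there on mouse 9969 and on 13 and 11 cells of mouse 9970, with 5412 and 3411 UMIs. Without mouse 9970 these contrasts could be fitted only with mouse 9969 as the lone CORT/Sal library, assumed to vary like the other groups.

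Nr3c1 in endothelial cells, the class with most of it, was 318.9 and 266.8 CPM in mice 9901 and 9947 (BCD/Sal), and 340.1, 223.8 and 375.4 in mice 9946, 9949 and 9986 (BCD/Ket). Of the animals on CORT, mouse 9969 (CORT/Sal) stood at 243.0 and mice 9967, 9968 and 9971 (CORT/Ket) at 164.9, 290.0 and 311.8. The groups overlapped throughout, and CORT/Ket differed from BCD/Ket by -0.18 on the log2 scale (SE 0.42). Across the 7 classes tested for this contrast the log2 difference of Nr3c1 ran from -0.55 to 0.41, with a median SE of 0.45 and 4 of 7 upward.

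Hsp90aa1 was lower in CORT/Ket than in BCD/Ket in 9 of 9 classes, by -0.06 to -1.01. Its lowest unadjusted p by edgeR was 0.169. Hsp90ab1 was lower in 8 of 9 classes (-0.64 to 0.21) and Nr3c2 in 3 of 3 (-0.72 to -0.10). The classes came from the same 6 mice, so the 9 are not independent. In excitatory neurons Hsp90aa1 was 1558.8, 1425.2 and 756.7 CPM in the BCD/Ket mice 9946, 9949 and 9986 and 1314.8, 753.1 and 559.1 in the CORT/Ket mice 9967, 9968 and 9971. The BCD/Sal mice stood at 619.6 and 2002.8, so the controls alone spanned more than both Ket groups. In endothelial cells the BCD/Ket values were 417.9, 1154.4 and 431.6 and the CORT/Ket values 439.6, 510.5 and 412.3. Mouse 9949 was the only value there that stood apart.

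Nr3c2 in endothelial cells was 40.3 and 29.6 CPM in the BCD/Sal mice, 77.7, 21.1 and 38.4 in the BCD/Ket mice, 19.4 in mouse 9969, and in CORT/Ket it was 0, 15.1 and 31.2. The value of 0 came from mouse 9967, whose 18197 endothelial UMIs allow up to 203 CPM (exact interval). The groups overlapped, and CORT against BCD averaged over both injections gave a log2 difference of -0.85 (SE 0.48, adjusted p = 0.907). Hsd11b1 was tested in astrocytes only, where CORT/Ket differed from BCD/Ket by -0.35 (SE 0.44) and BCD/Ket from BCD/Sal by 0.19 (SE 0.56). The unadjusted p under 0.05 belonged to the interaction for Fkbp4 in excitatory neurons, a log2 difference of -1.90 (SE 0.87, adjusted p = 0.999 by edgeR). Fkbp4 there was 28.1 and 43.0 CPM in BCD/Sal, 42.5, 118.0 and 31.8 in BCD/Ket, 97.7 in mouse 9969 and 55.8, 25.1 and 29.9 in CORT/Ket. This contrast rested on the single value of mouse 9969 and on 0 UMIs in 13 cells of mouse 9970.

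**Figure D5:**
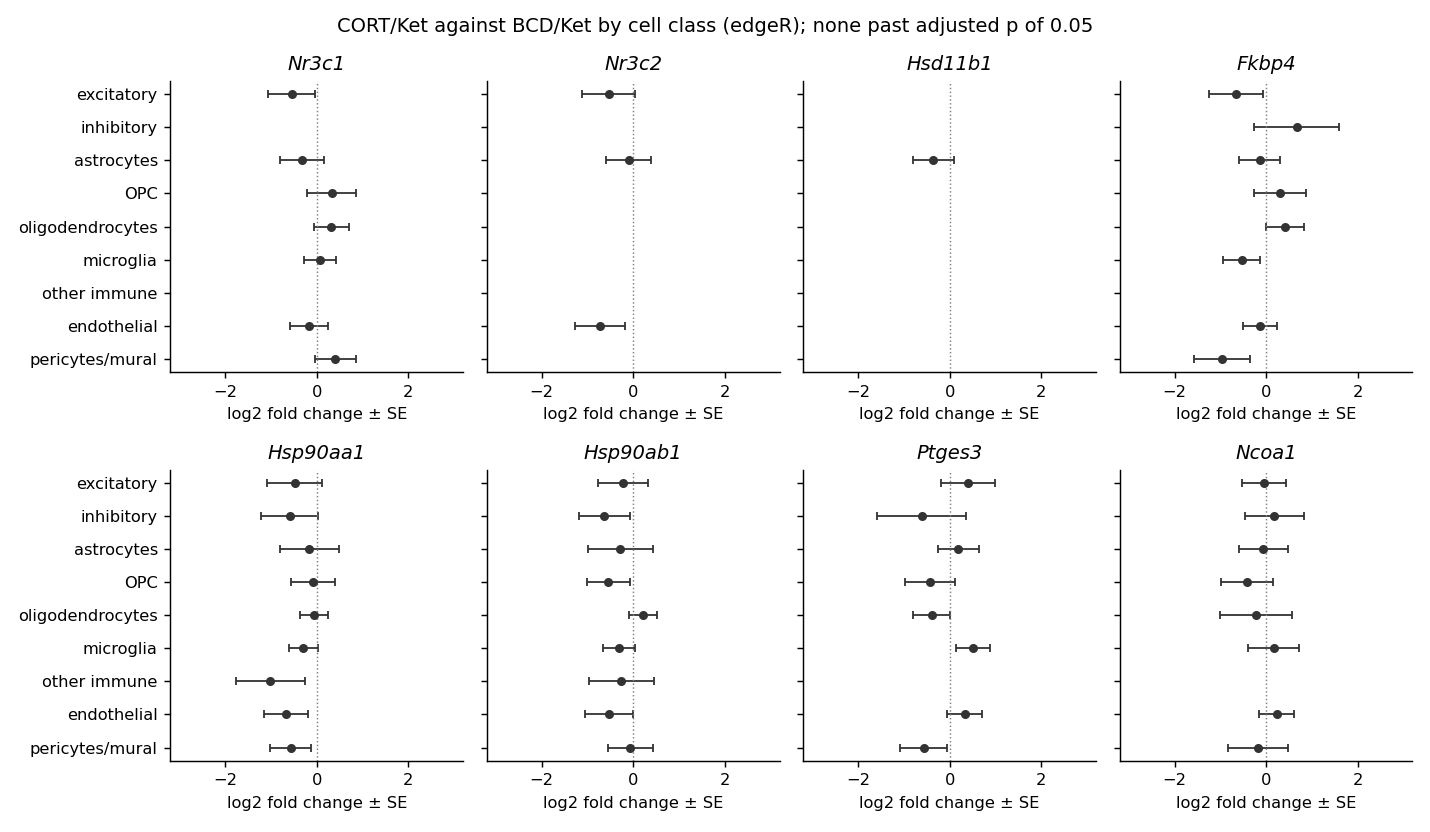
log2 difference of CORT/Ket from BCD/Ket (horizontal axis) with its SE, for each of the 8 genes in each class in which it was tested (vertical axis). The values of Nr3c1, Fkbp4, Ptges3 and Ncoa1 lie on both sides of 0. Hsp90aa1 lies below 0 in 9 of 9 classes, Hsp90ab1 in 8 of 9 and Nr3c2 in 3 of 3, and 0 tests passed the adjusted threshold.

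No difference of the receptor ratio between treatments was detected in 10 exact permutation tests (2-sided), each with an adjusted p of 1. In endothelial cells the mean log2 ratio was 3.69 ± 0.62 in CORT/Ket (n = 2) and 2.88 ± 0.71 in BCD/Ket (n = 3), with an exact p = 0.5 where the smallest possible is 0.1. In excitatory neurons it was 1.16 ± 0.68 and 1.43 ± 1.42 (n = 3 each, exact p = 0.8). With 3 mice a group at most, no such test could reach 0.05. Of the 58 listed pathway genes 52 were tested in 845 combinations, with 0 adjusted p under 0.05, 19 unadjusted ones and a lowest adjusted p of 0.275 by edgeR, and 0 and 0 by DESeq2.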

How the data were processed

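The authors deposited raw UMI counts per gene and barcode for each library (10x Chromium, 3′ end counting), written by Cell Ranger 3.0.2 per the file headers; the study's methods name the build mm9, and the labels name Seurat 3.1.1. The annotation behind the counts is not given in the sources used here, and gene positions are from GENCODE M1 on NCBIM37. Prefrontal cortex samples were not analysed here. No column of another sample was present, since 0 columns lacked a sample.

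Barcodes with at least 200 genes and at most 12.5% mitochondrial UMIs were kept. They were scaled to 10000 UMIs, reduced to 2000 variable genes without the 8 genes or the pathway genes, 30 components and 20 neighbours, and clustered (scanpy 1.11.5, leidenalg 0.10.2, resolution 0.8, seed 1). Clusters took the name of a class that had 3 or more markers among their 50 leading genes, each detected in at least 10% of the cells; other names could be given by other rules. No doublets were removed, and an alternative dropped the 216 highest Scrublet scores.

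Counts were summed per class and library. Sums of at least 10 cells and 10000 UMIs (67, from 10430 to 853709 UMIs) gave the levels and the fit between classes; treatments were fitted per class with at least 10 cells and 2 libraries a group. Tests were edgeR 4.0.16 quasi-likelihood (TMM, robust, R 4.3.3) with Benjamini-Hochberg adjustment over all genes of the fit, and exact permutation tests over libraries with 10 CPM added before log2; DESeq2 1.42.0 was an alternative. Both were tested on simulated data. The p-values between treatments measure the spread between mice. Those between classes, in the fit with the library as a block and in the paired tests, measure how differences within a library vary over libraries. Ratios had 0.5 added to each count.

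The 8 genes, the pathway lists and the dissociation list were chosen with earlier results of these data known. All 8 are named in every class. Of the lists, up to 3 genes of smallest adjusted p per class were named, with any called between treatments, and the 3 genes most like each of the 8 with a mean of at least 20 CPM. The tests over all pairs of ratios, those between clusters and 2 alternatives (no scaling factors; without the endothelial cluster led by stress genes) were added after the data were seen. Some of the genes so named are not reported here.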

Additional observations from a re-analysis of the deposited data

Results flagged for a closer look

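Of 79 groups of 4 to 10 libraries (a gene or the receptor ratio in 1 class), 14 held a library whose gap to the nearest other library was too large for the range of the group, where chance gives about 1 in 20. Of these, 9 rested on fewer than 5 UMIs.

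Hsp90aa1 in endothelial cells was 1154 CPM in mouse 9949 (BCD/Ket, 655 UMIs) against 326 to 576 in the other libraries. The same library had the highest sum of dissociation genes in that class, 17679 CPM, and the part of dissociation was not tested. Ptges3 in oligodendrocytes was 321 CPM in mouse 9946 (32 UMIs) against 173 to 242, and Fkbp4 in inhibitory neurons was 163 CPM in mouse 9969 (10 UMIs) against 29.8 to 85.6. The log2 ratio of Nr3c1 to Nr3c2 in microglia was 6.79 in mouse 9968, with 55 Nr3c1 UMIs and 0 of Nr3c2, against 3.598 to 4.69.

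The rest were small counts. Mouse 9946 stood out for Nr3c2 in astrocytes (149 CPM, 2 UMIs) and in pericytes or mural cells (95.9 CPM, 1 UMI), and for Fkbp4 in pericytes or mural cells (288 CPM, 3 UMIs). Ncoa1 was 136 CPM in oligodendrocytes of mouse 9947 (4 UMIs) and 255 CPM in other immune cells of mouse 9971 (5 UMIs), and Nr3c2 was 51.0 CPM there (1 UMI). Hsd11b1 was above 0 in only 1 library each of inhibitory neurons (14.9 CPM, mouse 9971), microglia (2.77 CPM, mouse 9949), other immune cells (20.7 CPM, mouse 9969) and pericytes or mural cells (22.1 CPM, mouse 9969), from 1 to 3 UMIs.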

How the results depend on the processing

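The 72 differences of a gene between a class and the others were recomputed under alternative filters, scalings, clusterings and tools and without each library. Of 1551 values, 1397 kept direction and side of the threshold, 104 kept direction but lost the call, 36 gained it and 14 reversed. Leaving out a library gave 684 of these values, with 643, 37, 4 and 0, and 28 to 38 calls. At most 5% mitochondrial UMIs left 36 tests and 18 calls, from fewer barcodes.

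Values reversed for Hsp90aa1 in inhibitory neurons (0.55 with RLE factors, 0.36 without factors, 0.61 with up to 25% mitochondrial UMIs, 0.59 at resolution 0.4), Ptges3 in microglia (-0.43 with RLE factors, -0.44 at resolution 0.4), Ptges3 in excitatory neurons (0.049 with up to 25%) and Hsp90ab1 in excitatory neurons (0.42 with up to 25%, 0.37 at resolution 0.4, 0.15 with the 8 genes kept in the clustering). At most 5% mitochondrial UMIs reversed Hsp90aa1 in endothelial cells (0.97), Fkbp4 in inhibitory neurons (0.14), and Hsp90ab1 (0.030) and Nr3c1 (0.0016) in oligodendrocyte precursor cells. The cause was not tested.

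The mean log2 receptor ratio moved to 0.78 in inhibitory neurons with up to 25% mitochondrial UMIs and to 1.67 in astrocytes with at most 5%. In oligodendrocyte precursor cells it moved within its SD, to 4.64 in the 1 library left with at most 5% and 4.16 in the 3 with at least 20 UMIs of the pair. Without each library it ran from -0.19 to 0.36 in inhibitory neurons, 1.30 to 1.64 in excitatory neurons, 2.37 to 2.85 in astrocytes, 2.54 to 3.56 in oligodendrocyte precursor cells and 3.98 to 4.62 in microglia. Thinned to 500 UMIs, the shares were 5.70% (Hsd11b1, astrocytes), 14.1% (Nr3c1, endothelial cells), 1.196% (Nr3c2, excitatory neurons) and 63.2% (Hsp90aa1, oligodendrocytes), by construction lower. The counts of calls between treatments, of neighbouring classes and of ratios were 0 in every alternative run. For the exact tests this says little, since so few libraries allowed hardly any other count. In the main run no ratio test between treatments could go below an exact p of 0.1. For Nr3c1, excitatory against inhibitory neurons had the smallest exact p possible with 9 libraries, 0.0039, and an adjusted p of 0.125. For the ratio, pericytes or mural cells against oligodendrocytes had the smallest possible with 6 libraries, 0.03125, and an adjusted p of 0.219.

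No paired analysis was possible because the treatment groups hold different mice and share no replicate number. Depth limits Nr3c2 and Hsd11b1, with 436 and 389 UMIs over all kept barcodes, and the CORT/Sal group rests on 1 mouse in most classes.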
